A study of Mus musculus with 4 samples.

Results

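The immediate early genes described here are Fos, Fosb, Jun, Junb, Jund, Egr1, Egr2, Egr3, Ier2 and Nr4a1, which were taken by their gene symbols from a count table of 55401 genes. The 10 genes were read in follicular B (FOB) cells, the resting, recirculating B cells of the spleen, in poly(A) RNA-seq libraries from 2 WT and 2 Hnrnpf bKO samples of C57BL/6 mice aged 7 weeks. In the Hnrnpf bKO mice, floxed alleles of Hnrnpf (Hnrnpf fl/fl), the gene of the RNA-binding splicing regulator hnRNP F, are deleted by a Cre that is expressed in B cells. The labels of the other group give its genotype only as WT. The WT mice of the study are described as Hnrnpf fl/fl without Cre, so the Cre allele was carried by the Hnrnpf bKO group alone, and its effect cannot be told apart from that of the deletion. Cells of both groups were sorted by FACS as B220+CD93-CD23highCD21low and were not stimulated in any step that the sources describe. The 4 libraries came from a single experiment, and nothing states whether they came from separate or pooled mice, so p-values measure the spread between these libraries, which may be technical.

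Immediate early genes are transcribed within minutes of a signal, without new protein synthesis, by factors that are already in the cell. In B cells the signal can be engagement of the B cell receptor, CD40 or a Toll-like receptor, and also the handling of the cells during isolation. Fos and Fosb proteins dimerise with Jun, Junb or Jund to form AP-1, whereas Egr1, Egr2 and Egr3 are zinc finger factors, Nr4a1 (Nur77) is an orphan nuclear receptor and Ier2 is a small nuclear protein. Their mRNAs are mostly short-lived, so the level in a library follows recent transcription.

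To show what the start regions of these genes hold, the 250 bases before the RefSeq start (assembly GRCm38.p6) are given below for Fos and Junb, which were lower in Hnrnpf bKO, and for Jun and Nr4a1, which did not pass the test. The Fos window is chr12:85473640-85473889 on the plus strand, the Junb window chr8:84978749-84978998 on the minus strand, the Jun window chr4:95052223-95052472 on the minus strand and the Nr4a1 window chr15:101266596-101266845 on the plus strand. All 4 windows held 0 bases of annotated exons. The windows of Fos, Junb and Jun lie upstream of the gene, whereas that of Nr4a1 lies before the RefSeq start but inside the span of the gene in the count table (chr15:101254269-101274795), between exons of a longer transcript. They are written 5′ to 3′ on the strand of the gene, and capitals mark TGACG, the core of the cyclic AMP response element (CRE) to which CREB and ATF factors bind, or CGTCA, the same core on the other strand.
Fos: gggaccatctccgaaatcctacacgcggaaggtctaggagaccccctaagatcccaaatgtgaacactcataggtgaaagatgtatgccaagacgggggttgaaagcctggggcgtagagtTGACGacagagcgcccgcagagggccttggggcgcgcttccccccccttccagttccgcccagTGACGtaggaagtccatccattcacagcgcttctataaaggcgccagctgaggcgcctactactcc
Junb: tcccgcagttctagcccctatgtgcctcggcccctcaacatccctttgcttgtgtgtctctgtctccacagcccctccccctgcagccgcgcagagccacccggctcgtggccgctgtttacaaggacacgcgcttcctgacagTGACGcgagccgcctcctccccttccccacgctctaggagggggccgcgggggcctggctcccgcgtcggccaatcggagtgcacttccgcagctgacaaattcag
Jun: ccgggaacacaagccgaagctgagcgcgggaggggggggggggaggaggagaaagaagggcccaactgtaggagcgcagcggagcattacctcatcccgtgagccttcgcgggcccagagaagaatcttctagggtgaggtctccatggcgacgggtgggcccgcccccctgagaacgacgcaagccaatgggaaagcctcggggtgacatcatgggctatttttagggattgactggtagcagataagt
Nr4a1: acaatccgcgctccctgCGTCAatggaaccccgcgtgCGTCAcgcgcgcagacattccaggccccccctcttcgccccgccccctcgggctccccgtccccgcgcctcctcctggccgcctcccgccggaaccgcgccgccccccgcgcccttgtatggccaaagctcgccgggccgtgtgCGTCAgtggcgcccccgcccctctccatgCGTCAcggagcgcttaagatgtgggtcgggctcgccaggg

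RefSeq windows were found for 7 of the 10 genes, and Egr1, Egr3 and Ier2 were not matched. The Jund window (chr8:70697489-70697738) stops short of the start of Jund in the count table (chr8:70698949). It therefore does not describe the bases directly before that start. TGACG on either strand was in the windows of 5 of the 7 genes (Fos, Fosb, Junb, Nr4a1 and Egr2), against 17.8% of 32851 windows of all genes. Egr2 has 5 windows, counted here if any held a motif, and 3 of them held TGACG, whereas the other genes have 1 window each and the percentages are shares of windows. The Fos window holds it 129 to 125 and again 66 to 62 bases before the start, with a TATAAA box 33 to 28 bases before the start. The Junb window holds it 106 to 102 bases before the start, and that of Nr4a1 holds it 4 times, each time on the other strand. The complete palindrome TGACGTCA, of which TGACG is a part, was in 0 of the 7 genes and in 1.55% of all windows. The Egr site GCGNGGGCG on either strand was found for Fosb and Nr4a1 (4.70% of all windows). TATAAA on the gene's strand was found for Fos alone (7.59%). TGANTCA, a common form of the AP-1 site, was found for 0 genes (6.75%). The CArG box bound by Srf, taken as CCWWWWWWGG with W for A or T, was found for Egr2 alone (1.47%). Only exact matches within 250 bases of the start were counted, so variants of these sites and sites further upstream were not looked for. Genes with TGACG in the window were found among those that fell (Fos and Junb) and among those that did not pass the test (Fosb, Nr4a1 and Egr2), and a match is no evidence of binding.

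Library totals ranged from 15698567 to 18908963 counts, and replicates of a group differed by more than sampling noise. Hnrnpf itself had 5780 and 6634 counts in the WT libraries against 1167 and 1194 in the Hnrnpf bKO libraries (log2 fold change −2.32 ± 0.06 SE, 20.1% of WT), so each of the 4 libraries matched its label. Follicular B cell markers dominated every library, with Cr2, Ms4a1, Pax5 and Ebf1 lower and Ighd and Fcer2a higher in Hnrnpf bKO at an adjusted p of at most 0.05 (edgeR). Of 8 neutrophil markers 4 could be tested and 3 (S100a8, S100a9 and Ngp) were higher in Hnrnpf bKO. All 8 together summed to 21.1 and 38.9 CPM (counts per 1000000 counts of a library) in Hnrnpf bKO against 9.17 and 13.2 in WT. Of the markers that were not tested, Ly6g, Elane and Mpo had 0 to 2 counts in each library other than Hnrnpf bKO 2, which had 13, 10 and 7. Retnlg, also not tested, had 6 and 12 counts in the WT libraries against 7 and 9 in the Hnrnpf bKO libraries. No marker of T cells, macrophages and monocytes, NK cells, erythroid cells, plasma cells or germinal center B cells passed in edgeR or DESeq2, and at an unadjusted p under 0.05 only Lck, Adgre1 and Cd68 were lower (edgeR). Of the marginal zone markers Cd1d1 was higher and Dtx1 and S1pr3 were lower, and of the transitional markers Cd93 was higher. The part of any of these shifts in the values below was not tested, and in sorted bulk RNA fewer cells of a type and less RNA per cell cannot be told apart.

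To ask whether loss of hnRNP F changed the resting level of the immediate early genes, counts were compared with edgeR's quasi-likelihood test over 14123 genes that passed a filter on low counts, with Benjamini-Hochberg adjustment over all of them. All 10 genes passed the filter. At an adjusted p of at most 0.05, Fos, Junb and Ier2 were lower in Hnrnpf bKO (3 of 10, against 2.83% of all genes tested) and 0 of 10 were higher (against 4.15%). DESeq2 gave 2 lower, Junb and Ier2, and 0 higher, beside 249 lower and 368 higher over all genes. At an unadjusted p under 0.05 edgeR gave 6 lower and 1 higher, Jund. The share of all genes under that unadjusted threshold was not computed, for these genes or for the other lists, so such counts have no background here. With a fold change of at least 2 as well, Fos alone was lower (against 0.255%) and 0 were higher (against 0.644%). The median log2 fold change of the 10 genes was −0.39, beside −0.00 over all genes tested. Both Hnrnpf bKO libraries lay below both WT libraries for 6 genes (Fos, Fosb, Junb, Egr1, Egr2 and Ier2), which is the case for 24.8% of all genes. They lay above both for Jund and Nr4a1 (25.3% of all genes), and the groups overlapped for Jun and Egr3. The plot of CPM per library shows these positions for each gene.

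**Figure D1:**
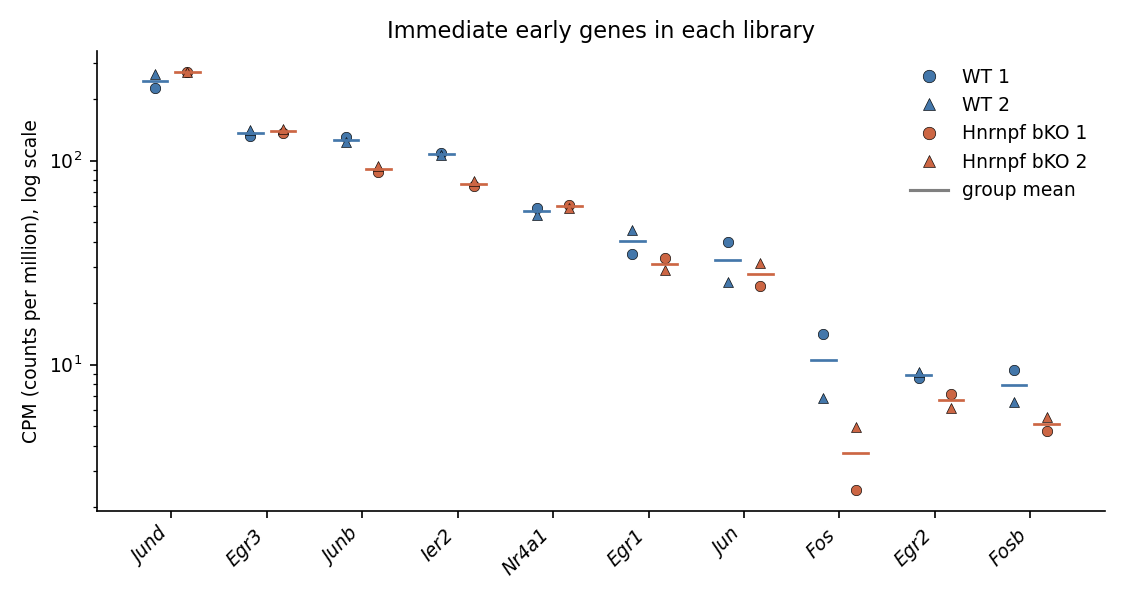
Level of each immediate early gene in each of the 4 libraries, in CPM on a log scale, with WT in blue and Hnrnpf bKO in orange, circles for replicate 1, triangles for replicate 2 and lines for the mean of a group. Junb and Ier2 show 2 close points in each group with a gap between the groups, whereas the points of Fos and Jun are spread within both groups.

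Among the Fos proteins, which bind DNA only as a partner of a Jun protein, Fos showed the largest log2 fold change of the 10 genes. Fos (ENSMUSG00000021250, chr12:85473890-85477273, plus strand, GRCm38) had 231 and 131 counts in the WT libraries against 38 and 88 in the Hnrnpf bKO libraries, that is 14.1 and 6.89 CPM against 2.42 and 4.91 CPM. Both Hnrnpf bKO libraries were below both WT libraries, but the libraries of each group stood apart too, by 2.05-fold in WT and 2.03-fold in Hnrnpf bKO. Fos thus fell to 35.7% of WT, a log2 fold change of −1.49 ± 0.34 (SE) with an adjusted p of 0.0189 (edgeR). The call rested on WT 1 and Hnrnpf bKO 1: without the first the log2 fold change was −0.89 (adjusted p 0.0953), and without the second −1.08 (adjusted p 0.0703, both edgeR). DESeq2 gave a log2 fold change of −1.52 with an adjusted p of 0.280, and over the 12 alternative fits, all judged at an adjusted p of at most 0.05, Fos kept its direction and passed the test in 5.

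Fosb, a second Fos protein that is induced together with Fos, had 9.42 and 6.52 CPM in WT and 4.72 and 5.53 CPM in Hnrnpf bKO. The groups did not overlap, and WT 1 was the highest library, as it was for Fos. Its log2 fold change of −0.63 ± 0.22 (SE) did not pass the test (edgeR, adjusted p 0.118), with a 95% interval from −1.11 to −0.15. It passed in 2 of 12 alternatives, of which that without WT 2 gave −0.87 (edgeR, adjusted p 0.0217).

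Of the Jun proteins, Junb fell. Junb (ENSMUSG00000052837, chr8:84976910-84978718, minus strand, GRCm38), a weaker activator than Jun in most settings and an abundant AP-1 subunit of lymphocytes, had 131 and 123 CPM in WT and 88.2 and 94.2 CPM in Hnrnpf bKO. The 2 libraries of a group differed by 1.06-fold in WT and 1.07-fold in Hnrnpf bKO, less than the distance between the groups. Junb had a log2 fold change of −0.47 ± 0.06 (SE), or 72.0% of WT with a 95% interval of 65.7% to 79.0%, and the adjusted p was 5.78e-04 (edgeR). It passed in 10 of 12 alternatives, whose log2 fold changes ran from −0.52 to −0.43. The exceptions were the 2 limma fits on FPKM (adjusted p 0.0611 and 0.0626).

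Jun, the founding member of AP-1 and a target of the JNK kinases, had 40.1 and 25.3 CPM in WT and 24.3 and 31.7 CPM in Hnrnpf bKO. The groups overlapped, with WT 1 the highest library and Hnrnpf bKO 1 the lowest. For Jun it was −0.21 ± 0.17 (SE) on the log2 scale, with a 95% interval from −0.59 to 0.16 and an adjusted p of 0.551 (edgeR). Its sign turned on WT 1, since the log2 fold change was 0.15 without that library (edgeR, adjusted p 0.668) and −0.51 without WT 2 (adjusted p 0.0161). An antisense gene, Junos, overlaps Jun and had 27 counts over all libraries. Reads of the pair can be told apart only by strand, and the strand setting of the counting is not given in the sources used here.

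Jund, the Jun protein that is expressed at a steady level in resting cells, had 228 and 265 CPM in WT and 274 and 273 CPM in Hnrnpf bKO. Both Hnrnpf bKO libraries were above both WT libraries, and the distance between the groups was smaller than that between the WT libraries. Jund had a log2 fold change of 0.15 ± 0.06 (SE, 95% interval 0.01 to 0.29), which did not pass after adjustment (edgeR, adjusted p 0.226). Without WT 2 it was 0.26 (edgeR, adjusted p 0.0192), the only alternative in which it passed.

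The zinc finger genes Egr1, Egr2 and Egr3 did not pass the test. Egr1, a direct target of ERK signalling downstream of the B cell receptor, had 34.7 and 45.6 CPM in WT and 33.2 and 29.3 CPM in Hnrnpf bKO, and its groups were separated by less than the gap between the WT libraries. Its log2 fold change was −0.37 ± 0.12 (SE, 95% interval −0.63 to −0.11) with an adjusted p of 0.0879 (edgeR). Without WT 1 it passed, at a log2 fold change of −0.55 (edgeR, adjusted p 0.00147), and without WT 2 it was −0.15. Egr2, which restrains the response of lymphocytes to antigen, had 8.62 and 9.15 CPM in WT and 7.21 and 6.14 CPM in Hnrnpf bKO. The groups of Egr2 did not overlap, and its log2 fold change of −0.42 ± 0.18 (SE, 95% interval −0.80 to −0.04) had an adjusted p of 0.197 (edgeR) and passed in 0 of 12 alternatives. Egr3, which acts beside Egr2, had 132 and 142 CPM in WT and 137 and 144 CPM in Hnrnpf bKO. Its groups overlapped and its log2 fold change was 0.03 ± 0.06 (SE, adjusted p 0.816 by edgeR), so the 95% interval of −0.09 to 0.16 leaves out a change of the size seen for Junb or Ier2.

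Ier2 fell by the same measure as Junb and was the most stable of the 3 calls. Ier2 (ENSMUSG00000053560, chr8:84661331-84662854, minus strand, GRCm38), a nuclear protein of a single-exon gene that is induced together with Fos and Egr1, had 109 and 107 CPM in WT and 75.1 and 79.2 CPM in Hnrnpf bKO. The libraries of a group differed by 1.02-fold in WT and 1.06-fold in Hnrnpf bKO, and the groups were well apart. The log2 fold change was −0.49 ± 0.06 (SE), or 71.4% of WT with a 95% interval of 65.1% to 78.4%, and the adjusted p was 4.78e-04 (edgeR). Ier2 passed in 12 of 12 alternatives, with log2 fold changes from −0.52 to −0.45.

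Nr4a1, which rises with the strength of B cell receptor signalling and is used as a reporter of it, had 58.5 and 54.4 CPM in WT and 61.0 and 58.7 CPM in Hnrnpf bKO. Both Hnrnpf bKO libraries were above both WT libraries, by less than the gap between the WT libraries. The log2 fold change was 0.08 ± 0.08 (SE), with an adjusted p of 0.587 (edgeR) and a 95% interval from −0.08 to 0.25. The interval bounds the level in Hnrnpf bKO at 94.7% to 119% of WT, and Nr4a1 passed in 0 of 12 alternatives.

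**Figure D2:**
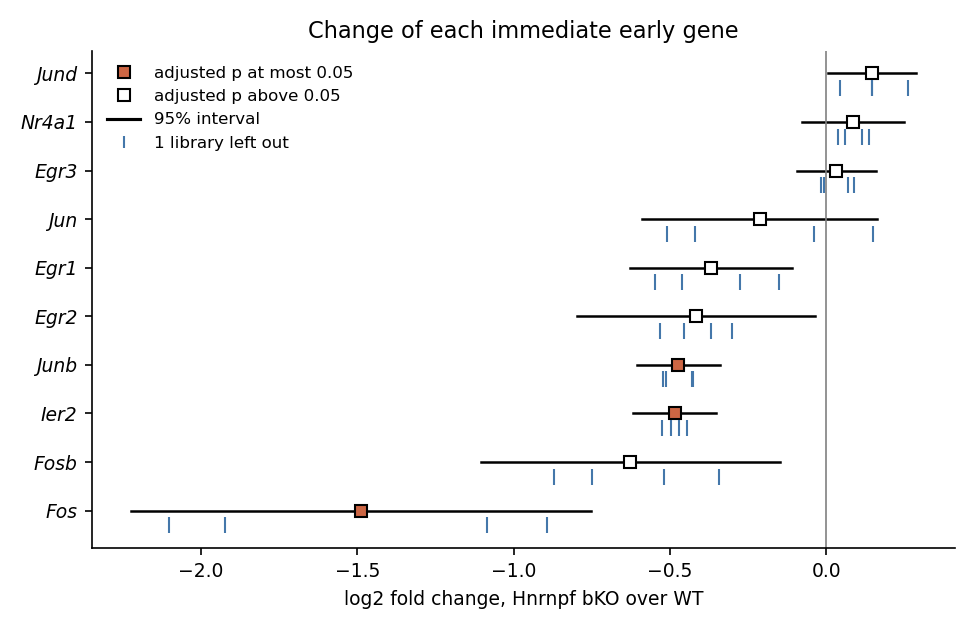
Log2 fold change of each immediate early gene, Hnrnpf bKO over WT, with its 95% interval (lines), filled squares for genes with an adjusted p of at most 0.05 (edgeR) and blue marks for the values with 1 library left out in turn. The marks of Junb and Ier2 stay between −0.52 and −0.43, those of Fos run from −2.10 to −0.89, and those of Jun and Egr3 fall on both sides of 0.

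The immediate early genes differed in how well replicate libraries matched. Within groups, the SD of log2 CPM was 0.73 for Fos, 0.38 for Jun, 0.29 for Fosb and 0.22 for Egr1, and lay between 0.04 (Ier2) and 0.06 (Junb) for Junb, Ier2, Egr3 and Nr4a1. Among genes within a 2-fold range of its mean count, the spread of Fos was larger than that of 99.3%, that of Jun larger than that of 99.6%, and that of Egr1 larger than that of 97.4%. For Ier2 the same value was 31.6%, for Egr2 38.5% and for Nr4a1 43.6%. The 95% Wilson intervals of the CPM, which cover counting error only, did not overlap between the 2 WT libraries for 5 genes (Fos, Fosb, Jun, Jund and Egr1) and between the 2 Hnrnpf bKO libraries for Fos and Jun. For Fos, counting error alone would give a coefficient of variation of 6.58% in WT 1 and 16.2% in Hnrnpf bKO 1, with intervals of 12.4 to 16.1 CPM and 1.77 to 3.33 CPM. The higher library of each group was the same, WT 1 and Hnrnpf bKO 2, for Fos, Fosb, Jun, Junb and Ier2. In Jund, Egr1, Egr2 and Egr3 the higher WT library was WT 2 instead.

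**Figure D3:**
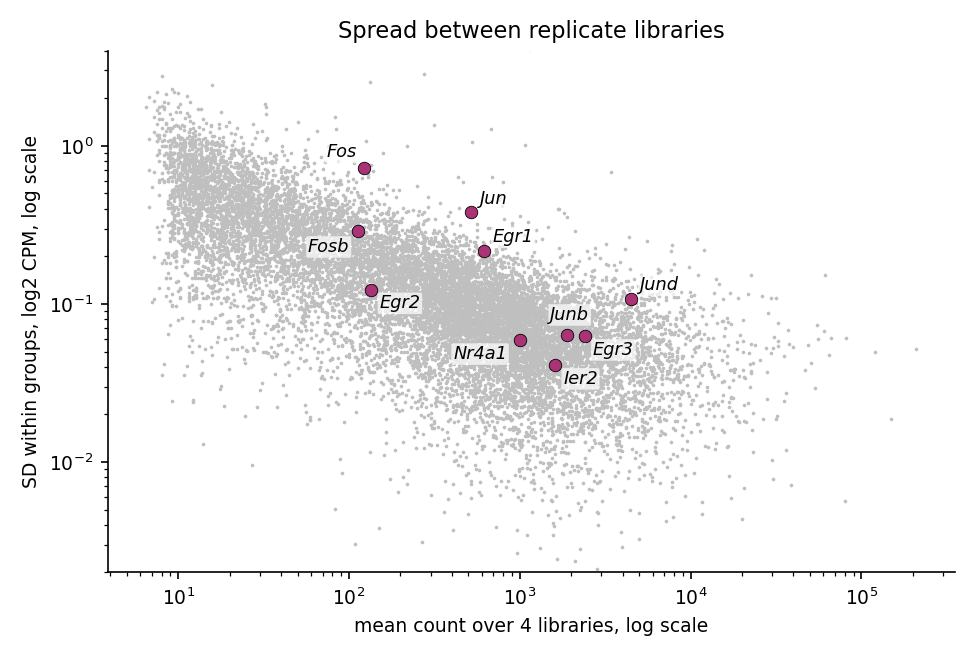
SD of log2 CPM within groups against the mean count over the 4 libraries, both on log scales, for all 14123 genes tested (grey) and the 10 immediate early genes (purple). Fos, Jun and Egr1 lie at the upper edge of the cloud at their count level, and Ier2, Egr2 and Nr4a1 lie inside it.

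In FPKM, which corrects for gene length and so allows levels to be set side by side, Jund was the most abundant of the 10 in WT at 148 ± 16.3 (SD, n = 2), followed by Ier2 at 71.1 ± 0.64 and Junb at 70.3 ± 2.64. Egr3 followed at 31.2 FPKM, Nr4a1 at 16.1, Jun at 10.3, Egr1 at 8.99, Fos at 4.48, Egr2 at 2.63 and Fosb at 1.28 FPKM. Ier2 and Junb overlapped in WT, as did Jun and Egr1, and the libraries of the other neighbours in this order did not overlap. In Hnrnpf bKO the order was the same except that Egr2, at 1.96 FPKM, stood above Fos, at 1.55 FPKM, with overlapping libraries. Jund was at 163 ± 1.17 FPKM there, and Ier2 and Junb had come down together to 50.4 ± 1.63 and 50.2 ± 2.07 FPKM. The 10 genes together made up 766 and 785 CPM in WT and 706 and 726 CPM in Hnrnpf bKO.

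As AP-1 is a dimer, the make-up of the Jun pool was compared. Jund accounted for 61.8% and 67.7% of the summed FPKM of Jun, Junb and Jund in WT, and for 74.4% and 72.5% in Hnrnpf bKO. The share was higher in both Hnrnpf bKO libraries than in either WT library, at 73.5% ± 1.35 against 64.7% ± 4.18 (SD, n = 2, two-sided exact permutation test, p = 0.333, the smallest that 2 against 2 libraries allow). Junb accounted for 32.6% and 28.9% in WT against 22.1% and 23.1% in Hnrnpf bKO, and there was 1.9 and 2.3 times as much Jund as Junb in WT against 3.4 and 3.1 times in Hnrnpf bKO. The summed FPKM of the 3 Jun genes stayed between 220 and 236 in the 4 libraries, with WT 2 the highest. Fos and Fosb together were at 7.5 and 4.0 FPKM in WT and 1.8 and 3.0 FPKM in Hnrnpf bKO, so that Jun transcripts exceeded Fos transcripts 29.5- and 59.1-fold in WT and 123- and 75.8-fold in Hnrnpf bKO.

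**Figure D4:**
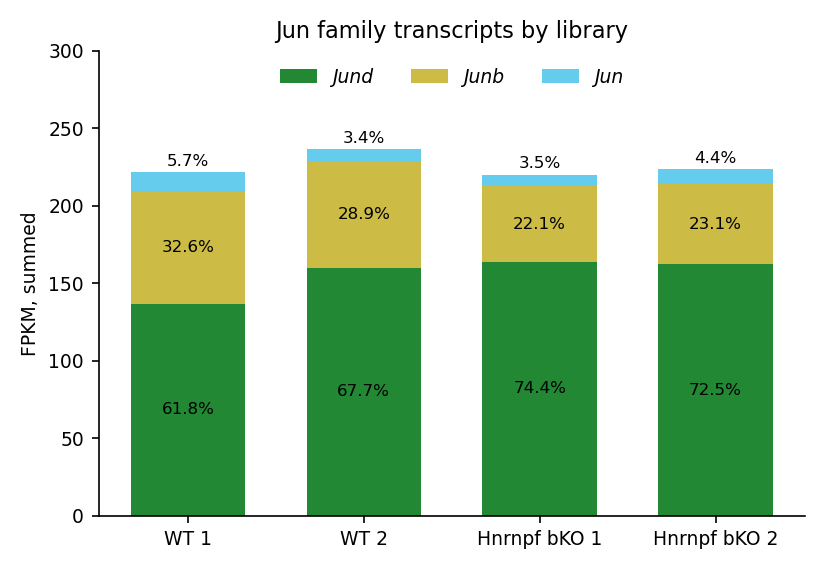
Summed FPKM of Jund (green), Junb (yellow) and Jun (blue) in each of the 4 libraries, with the share of each gene in percent written on or above its part of the bar. The bars are of like height, between 220 and 236 FPKM, and the green share is larger in both Hnrnpf bKO libraries.

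Among other genes of the AP-1 family, those that passed the test were higher in Hnrnpf bKO. Of 13 listed genes 8 could be tested, and 4 were higher (against 4.15% of all genes) and 0 lower, with a median log2 fold change of 0.31 in the list. At an unadjusted p under 0.05, 1 (Atf7) was lower with edgeR, and 0 passed as lower with DESeq2. Fosl2, a Fos protein without the activation domain of Fos, had 19 and 14 counts in the WT libraries against 97 and 33 in the Hnrnpf bKO libraries. Its libraries did not overlap but the Hnrnpf bKO libraries stood far apart, and the log2 fold change of 2.07 ± 0.52 (SE, edgeR, adjusted p 0.0295) became 0.97 without Hnrnpf bKO 1 (adjusted p 0.407). The call was also lost without WT 2 (1.77, adjusted p 0.0557) and with robust fitting (adjusted p 0.0706), and was made in 7 of 10 alternatives. Jdp2, which represses AP-1 sites as a partner of Jun proteins, had 20 and 31 counts in the WT libraries against 48 and 77 in the Hnrnpf bKO libraries (log2 fold change 1.36 ± 0.33, edgeR, adjusted p 0.0252) and passed in 7 of 12 alternatives, but not in DESeq2 (adjusted p 0.0959) nor without WT 1 (1.18, adjusted p 0.0852) or Hnrnpf bKO 2 (1.09, adjusted p 0.153). Maf, a large Maf protein with an activation domain, had 54 and 62 counts in the WT libraries against 137 and 139 in the Hnrnpf bKO libraries (log2 fold change 1.33 ± 0.21, edgeR, adjusted p 0.00221). Markers of T cells, which also express Maf, summed to 78.0 and 96.5 CPM in WT and 66.8 and 78.9 CPM in Hnrnpf bKO, and macrophage and monocyte markers to 20.3 and 24.0 against 17.2 and 20.9 CPM. Lck alone made up 52.2 and 59.6 CPM of the T cell sums in WT and 44.8 and 47.7 CPM in Hnrnpf bKO. Log2 fold changes were positive for 1 of 7 T cell markers (Cd3g) and for 1 of 5 macrophage and monocyte markers tested (Lyz2). Whether other cells contributed to the Maf counts was not tested. Mafg, a small Maf protein that pairs with Bach2, had 1242 and 1289 counts in the WT libraries against 1451 and 1671 in the Hnrnpf bKO libraries (log2 fold change 0.37 ± 0.07, edgeR, adjusted p 0.00654). Batf, Atf2, Atf7 and Mafk did not pass the test, and Fosl1, Atf3, Batf2 and Batf3 had at most 9 counts in any library and were not tested.

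Other genes that are induced early by B cell stimuli changed in both directions. Of 42 listed genes 36 could be tested, 3 were higher (against 4.15% of all genes) and 5 lower (against 2.83%), and the median log2 fold change was −0.01. DESeq2 gave 3 higher and 4 lower, and at an unadjusted p under 0.05 edgeR gave 8 and 7. The 3 that were higher were Cd69, a surface activation marker (0.51 ± 0.08 on the log2 scale, edgeR, adjusted p 0.00294), Btg2, an antiproliferative gene (0.34 ± 0.05, adjusted p 0.00133), and Myc (0.32 ± 0.07, adjusted p 0.0146). Cd69 had 839 and 971 counts in the WT libraries against 1236 and 1202 in the Hnrnpf bKO libraries. Those that were lower with the smallest adjusted p were Ier5, a paralog of Ier2 (−0.27 ± 0.06, edgeR, adjusted p 0.0109), the kinase gene Pim1 (−0.34 ± 0.07, adjusted p 0.0128), and Zfp36 and Zfp36l1, which encode proteins that destabilise AU-rich mRNAs (−0.30 ± 0.06 and −0.25 ± 0.06, adjusted p 0.0138 and 0.0184). Klf4, which keeps B cells quiescent, was the fifth, with 66 and 60 counts in the WT libraries against 23 and 32 in the Hnrnpf bKO libraries. Without Hnrnpf bKO 1 all 5 of these calls were lost, and so was that of Myc. Those of Ier5 and Myc were also lost without WT 1, and that of Klf4 without any of the 4 libraries. Dusp1, a phosphatase gene that is induced along with Fos when cells are handled, had 18.7 and 11.0 CPM in WT and 16.2 and 14.7 CPM in Hnrnpf bKO, with WT 1 the highest library, and did not pass the test (log2 fold change 0.07 ± 0.19, edgeR, adjusted p 0.883).

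**Figure D5:**
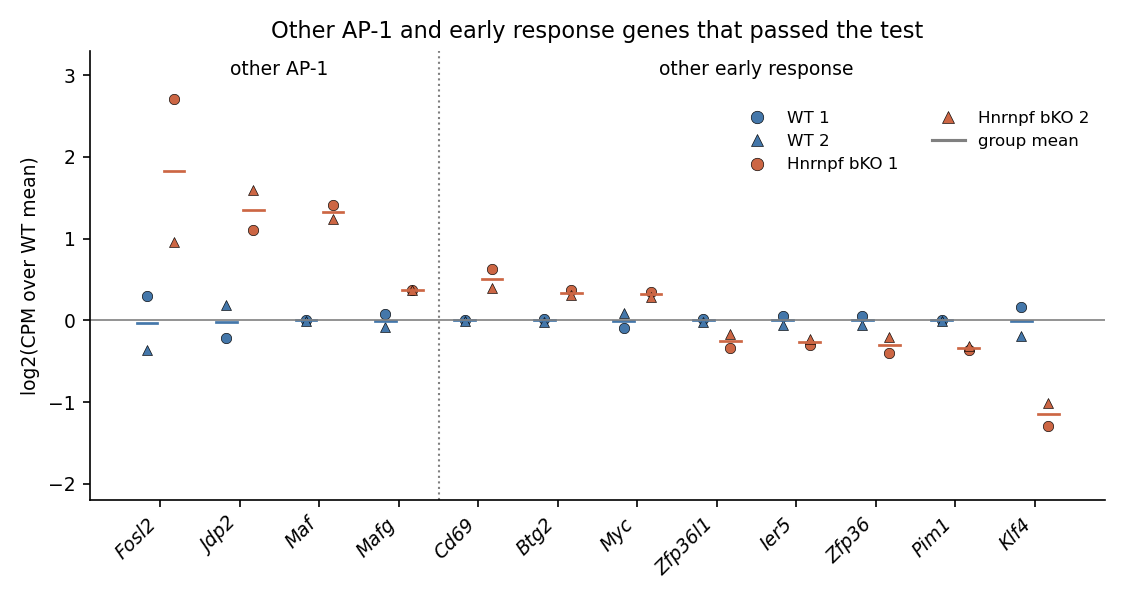
Log2 of the CPM over the WT mean in each of the 4 libraries for the other AP-1 genes and other early response genes with an adjusted p of at most 0.05 (edgeR), with WT in blue, Hnrnpf bKO in orange and lines for the group means of the log2 values. Fosl2 shows the widest spread between the Hnrnpf bKO libraries, and Maf and Mafg show close pairs of points.

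Regulators that act on immediate early genes were read as well. Of 24 listed upstream genes, all of which were tested, 2 were higher (against 4.15% of all genes) and 0 lower with edgeR (1 and 0 with DESeq2, 3 and 5 at an unadjusted p under 0.05), with a median log2 fold change of −0.08. The 2 were Rps6ka5, the gene of the histone kinase MSK1 that acts at immediate early promoters (777 and 867 counts against 911 and 1191 in Hnrnpf bKO, log2 fold change 0.42 ± 0.08, edgeR, adjusted p 0.00894), and Mrtfa, a coactivator of Srf (0.19 ± 0.05, edgeR, adjusted p 0.0377). Mrtfa did not pass with any of the 4 libraries left out, and Rps6ka5 did not without Hnrnpf bKO 2 (0.32, adjusted p 0.0718). Srf itself had a log2 fold change of −0.07 ± 0.07 (edgeR, adjusted p 0.596). Of 10 partners and repressors of the encoded proteins, 2 were higher (against 4.15% of all genes) and 0 lower with edgeR. DESeq2 also gave 2 and 0, and at an unadjusted p under 0.05 edgeR gave 4 and 1. The median log2 fold change of this list was 0.02. Those that passed were Bach2, which competes with AP-1 for its sites and binds DNA with small Maf proteins, and Rxrb, a partner of Nr4a1. Both were at 0.26 ± 0.05 on the log2 scale (edgeR, adjusted p 0.00627 and 0.00921). Among 14 heat shock genes, which rise under stress of cells, 12 could be tested and 0 passed with edgeR or DESeq2 (1, Hspa5, was lower at an unadjusted p under 0.05), with a median log2 fold change of 0.09. Within groups, Hspa8 and Hsph1 each spread more than 99.5% of genes with a similar mean count, and Dnaja1 more than 99.6%. Each had WT 1 and Hnrnpf bKO 2 as the higher libraries, as Fos and Jun did. The same libraries were the higher ones for Hspd1, Hsp90aa1, Hsp90ab1, Dnajb1 and Bag3. Hspa5, Hspa1b and Dnajb4 had WT 2 and Hnrnpf bKO 1 higher instead, and Hspe1 had WT 1 and Hnrnpf bKO 1 higher. What the spread within groups comes from was not tested.

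None of the 10 immediate early genes was listed in the deposited table of splicing events that differed between the genotypes. Of the 9875 tested genes that averaged 100 counts or more 10.6% were listed, so 0 of 10 is not far from that share. Jun, Junb, Jund and Ier2 have 1 exon in every coding transcript (GENCODE M21), and a second, non-coding transcript is annotated for Junb. Coding transcripts of Fos, Fosb, Egr1, Egr2, Egr3 and Nr4a1 have 2 or more exons. Of the other lists, 0 of 13 other AP-1 genes and 0 of 42 other early response genes were in that table, and both lists include genes with too few counts to test. Of the 24 upstream genes 2 were listed, Mef2d and Nfatc2, both activators of Nr4a1 and other early genes. Of the 10 partners and repressors 2 were listed, Bcl6 and Hdac7. With so few genes per list, no difference from the 10.6% of tested genes can be read.

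Ier2 and Junb, whose fold changes were close, both lie on chromosome 8, with 314055 bases between them. Between them lie 16 other genes that were tested, a region that was chosen after the values of Ier2 and Junb were seen. Among these, Lyl1 (−0.47 ± 0.07) was lower and Trmt1 (0.47 ± 0.05) was higher on the log2 scale (edgeR, adjusted p 0.00111 and 2.00e-04), and the median log2 fold change of the 16 was 0.01. Over the 4 libraries, the 5 genes with at least 100 counts on average whose centred log2 CPM lay nearest to the mean of the 10 immediate early genes were Trp53inp2, Trim30a, Krba1, Gm28192 and Tamm41, at Euclidean distances of 0.029 to 0.048. The mean centred log2 CPM of the 10 genes was 0.27 in WT 1 and 0.11 in WT 2, and −0.26 in Hnrnpf bKO 1 and −0.12 in Hnrnpf bKO 2, so WT 1 was the highest library and Hnrnpf bKO 1 the lowest.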

How the data were processed

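RNA of sorted FOB cells from 2 WT and 2 Hnrnpf bKO samples was sequenced as poly(A) libraries (NEBNext Ultra RNA kit, paired ends). Per the study's methods and the submitters' processing notes, reads were demultiplexed with bcl2fastq 2.17.1.14, checked with FastQC 0.10.1, trimmed with cutadapt 1.9.1, aligned to GRCm38 with HISAT2 2.0.1 and counted per gene with HTSeq 0.6.1. The authors deposited raw counts and FPKM, which divides the counts by exonic gene length and library total, with the libraries kept separate. Annotation release and strand setting are not given in the sources used here. A second deposited table lists splicing events that differed between the genotypes. Its columns of inclusion level difference and FDR are the authors' own comparison and were not used, and genes were looked up in it by gene identifier.

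Counts were tested with edgeR 4.0.16 (quasi-likelihood, TMM, filterByExpr, R 4.3.3) without a block, and p-values were adjusted by the Benjamini-Hochberg method over 14123 genes. The biological coefficient of variation was 5.90%. CPM uses TMM-scaled library sizes (factors 0.992 to 1.01). Log2 fold changes had a median SE of 0.08 over 9875 genes that averaged 100 counts or more, and of 0.40 over the other 4248. Alternatives were DESeq2 1.42.0, RLE factors, robust fitting, other filters, limma-trend (limma 3.58.1) on FPKM in log2 with a pseudocount of 0.1 or of 1 (average FPKM 0.5 or more), whose fold changes are on that scale, a replicate block, leaving out each library, and other thresholds. Scripts were tested on simulated data.

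Members and gene lists were chosen with earlier results of these data known. The genes named are the 10 immediate early genes, Hnrnpf, up to 4 genes per list and direction with the smallest adjusted p, marker genes that passed, and the 5 genes nearest in pattern. Klf4, Dusp1, Srf and other listed genes with values outside this rule, and the genes between Ier2 and Junb, were named after their values were seen. Mkl1 was matched to Mrtfa by RefSeq synonyms. Promoter windows come from RefSeq, and the exon numbers and annotated exons from GENCODE M21. A few listed genes are not reported here.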

Additional observations from a re-analysis of the deposited data

How the results depend on the processing

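Of the 3 calls, Ier2 kept its direction and passed at an adjusted p of at most 0.05 in all 12 alternative fits, Junb in all but limma on FPKM, where its log2 fold change was −0.49 with a pseudocount of 0.1 and −0.48 with 1, and Fos in 5 of 12. Fos kept its direction but did not pass with DESeq2 (−1.52), with robust fitting (−1.49, adjusted p 0.193) or with limma on FPKM (−1.46 and −1.07 with pseudocounts of 0.1 and 1), and the cause was not tested. With no filter on low counts 5 immediate early genes were lower, Fosb (−0.63, adjusted p 0.0389) and Egr1 (−0.37, adjusted p 0.00386) being added, whereas limma gave 1 with either pseudocount, and a fold change of at least 2 left 1, Fos, so that Ier2 and Junb were not called. Over all genes, 586 were higher and 399 lower. DESeq2 gave 368 and 249, limma 29 and 16 with a pseudocount of 0.1 and 26 and 15 with 1, and a fold change of at least 2 left 91 and 36. Without a filter 636 were lower, and at an adjusted p of at most 0.1 655 were lower.

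The replicate numbers are shared between the groups without a stated link, and the deviations of same-numbered libraries correlated at −0.08 over 9875 genes. With the replicate number as a block, Fos was at −1.44 (adjusted p 0.0518), 378 genes were higher and 234 lower, and 3 other early response genes were lower.

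With 1 library left out, the lone library of a group being assumed to vary like the other group, 2 to 5 immediate early genes were lower and 0 to 1 higher. The log2 fold change ran from −2.10 to −0.89 for Fos, −0.87 to −0.34 for Fosb, −0.51 to 0.15 for Jun, 0.044 to 0.26 for Jund, −0.55 to −0.15 for Egr1 and −0.016 to 0.087 for Egr3, which was −0.016 without WT 1 and −0.0064 without Hnrnpf bKO 2. Other early response genes went from 2 to 5 higher and from 0 to 5 lower, and 0 to 1 other AP-1 genes were lower. Counts of Fos, Fosb and Egr2, between 38 and 231 per library, limit what can be read for these genes.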
